A study of Mus musculus with 32 samples.

Results

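Dmp1 (ENSMUSG00000029307) and Nefl (ENSMUSG00000022055) are 2 of the 12451 genes counted in YUMM3.3 cells, and they were chosen by their measured response to Activin-A and to IFN-γ in earlier results of these data. The working description of the pair was a rise with Activin-A and a fall with IFN-γ. That description held for Dmp1 alone, because Nefl was lower than in untreated cells with each factor. The pair is therefore described here as 1 gene moved in opposite directions and 1 gene moved in the same direction by the factors. The comparisons of each single factor with untreated cells chose the genes, so their values are given as a description without a test.

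YUMM3.3 is an established mouse melanoma line with mutant Braf, grown here in culture without other cells. All 32 wells held the same line, and the groups differed only in the factor and the time: no factor (NT in the labels), Activin-A at 40 ng/ml, IFN-γ at 20 ng/ml, or both of them at these doses, with 4 wells in each of the 8 groups at 4 and 12 hrs. The dose of Activin-A is that of the labels, and figure legends of the study give a somewhat higher one. mRNA was measured by BRB-seq, in which barcoded reads come from the 3′ ends of transcripts. The wells are replicate cultures of 1 line, so that p-values measure the spread between wells of 1 experiment. In such bulk RNA, fewer cells that express a gene and less of its RNA per cell cannot be told apart.

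Dmp1 encodes dentin matrix acidic phosphoprotein, a secreted acidic protein that osteocytes and odontoblasts deposit in mineralising matrix, and a member of the small integrin-binding ligand N-linked glycoproteins together with osteopontin (Spp1). Nefl encodes the light chain of neurofilaments, the intermediate filaments of axons, and assembles there with the medium and heavy chains Nefm and Nefh. Activin-A signals through receptor kinases that phosphorylate Smad2 and Smad3, and IFN-γ through a receptor that uses JAK kinases. Neither gene is a standard readout of either pathway.

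Totals ran from 654539 to 1455074 counts per well, with a median of 988019.5. Dmp1 had 35 to 359 counts in a well and Nefl 167 to 864, all above a detection floor of 3 counts, which corresponds to 1.98 to 4.59 CPM. Levels are CPM, counts scaled to a common library total, after TMM normalisation, which sets that scale by the genes that change least between wells. Of 14 melanocyte and melanoma markers 13 had a row in the table, with a summed level of 345 to 499 CPM over the wells and Pmel at 102 to 145 CPM. Of 8 osteoblast and osteocyte markers only Phex had a row, and of 9 neuronal markers only Tubb3. Schwann and neural crest markers had 8 of 10 rows and fibroblast markers 5 of 7, with sums of 332 to 494 and 148 to 353 CPM over the wells, leukocyte and keratinocyte markers had 3 of 7 and 1 of 4 with sums up to 15.3 CPM, and of 5 endothelial markers none had a row. The factors were visible in their standard targets: 29 of 31 tested IFN-γ readout genes were higher with IFN-γ at each time, and of 22 tested Smad2/3 readout genes 11 were higher and 2 lower with Activin-A at 4 hrs, and 10 higher and 2 lower at 12 hrs. The counts at 4 hrs were 11 higher and 1 lower without the well described next. Replicate 1 of Activin-A at 4 hrs stood apart, with a chi-square per gene of 2.45 to 2.89 against the other wells of its group, where no other pair of replicates exceeded 1.54. Results that rest on that group are therefore also given without this well, an alternative that for genes other than the pair was added after seeing the data.

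At 4 hrs Dmp1 was raised by Activin-A and lowered by IFN-γ, and with both factors it stood at the level of IFN-γ alone. The untreated wells had 191, 194, 183 and 168 CPM of Dmp1, a mean of 184 ± 11.8 (SD, n = 4). With Activin-A the wells had 237, 239, 217 and 299 CPM (248 ± 35.7, SD, n = 4). With IFN-γ they had 158, 121, 141 and 127 CPM (137 ± 16.4, SD, n = 4). The Activin-A wells were all above and the IFN-γ wells all below the untreated wells. With both factors the wells had 143, 118, 144 and 135 CPM (135 ± 12.1, SD, n = 4), all below the untreated wells and within a range that overlaps that of IFN-γ alone.

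At 12 hrs the level of Dmp1 in untreated cells was lower, and the levels with the single factors again lay on opposite sides of it. The untreated wells had 89.7, 125, 111 and 103 CPM (107 ± 15.0, SD, n = 4). Activin-A gave 161, 140.3, 159 and 221 CPM (170.2 ± 34.8, SD, n = 4). IFN-γ gave 52.2, 36.6, 50.8 and 47.4 CPM (46.7 ± 7.05, SD, n = 4), the lowest of the 8 groups. The ranges of untreated, Activin-A and IFN-γ wells did not overlap. With both factors the wells had 122, 92.4, 109.5 and 128 CPM (113 ± 15.8, SD, n = 4), above every IFN-γ well, below every Activin-A well and overlapping the untreated wells, with its highest well just above the highest of them.

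At 12 hrs the summed level of the fibroblast markers was 266 to 306 CPM in untreated wells, 304 to 353 CPM with Activin-A, which overlapped them, and 148 to 191 CPM with IFN-γ, which lay below them, an order of the groups like that of Dmp1. With both factors it was 175 to 190.5 CPM, within the range of the IFN-γ wells, where Dmp1 was above it. Of this list Col3a1 had the highest level, at 95.8 to 287 CPM, Lum and Thy1 had no row, and its part in the values of Dmp1 was not tested.

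Nefl was highest in untreated cells at both times, lower with each factor and lowest with both. At 4 hrs the untreated wells had 679, 735, 676 and 700.3 CPM of Nefl (698 ± 27.3, SD, n = 4). Activin-A gave 389, 449.9, 406 and 435 CPM (420.2 ± 27.5, SD, n = 4). IFN-γ gave 436, 480.4, 487 and 485 CPM (472 ± 24.2, SD, n = 4). Wells of the single factors overlapped each other and lay below all untreated wells. With both factors the wells had 318, 287, 311 and 318 CPM (309 ± 14.9, SD, n = 4), below every well of either single factor.

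At 12 hrs the order of the Nefl groups was alike except that the single factors changed places. Untreated wells had 668, 702, 646 and 673 CPM (672 ± 22.9, SD, n = 4). Activin-A gave 306, 369.5, 360.0 and 332 CPM (342 ± 28.7, SD, n = 4), and IFN-γ gave 314, 335, 308 and 283 CPM (310.0 ± 21.0, SD, n = 4). These 2 groups overlapped. With both factors the wells had 212, 206, 202 and 195 CPM (204 ± 7.42, SD, n = 4), the lowest of all groups, with no overlap with any of them.

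**Figure D1:**
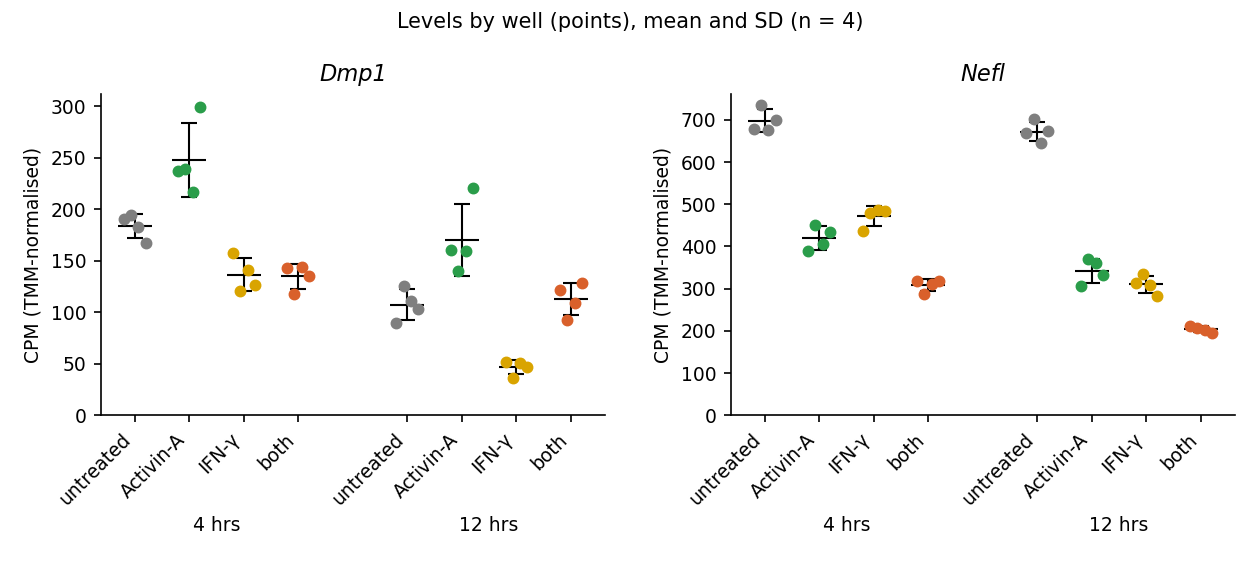
Level of Dmp1 (left) and Nefl (right) in CPM in each well (points), with the mean and SD of 4 wells per group, by treatment at 4 and 12 hrs. Dmp1 runs from 46.7 CPM with IFN-γ at 12 hrs to 248 CPM with Activin-A at 4 hrs, and Nefl from 204 CPM with both factors at 12 hrs to 698 CPM in untreated cells at 4 hrs.

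Ranked over the 8 groups, Dmp1 fell from Activin-A at 4 hrs through untreated at 4 hrs, Activin-A at 12 hrs, IFN-γ at 4 hrs, both at 4 hrs, both at 12 hrs and untreated at 12 hrs to IFN-γ at 12 hrs. Only the first and the last neighbours in this order, Activin-A and untreated at 4 hrs and untreated and IFN-γ at 12 hrs, had ranges without overlap. Nefl fell from untreated at 4 hrs through untreated at 12 hrs, IFN-γ at 4 hrs, Activin-A at 4 hrs, Activin-A at 12 hrs, IFN-γ at 12 hrs and both at 4 hrs to both at 12 hrs. Its neighbours were apart at 3 places: untreated at 12 hrs above IFN-γ at 4 hrs, Activin-A at 4 hrs above Activin-A at 12 hrs, and both at 4 hrs above both at 12 hrs. Across the 32 wells the log2 CPM of Dmp1 and Nefl had a Pearson r of 0.29, and their deviations from the group means an r of -0.14.

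As a description, the edgeR fit put Dmp1 at a log2 fold change of 0.43 (SE 0.09) with Activin-A against untreated at 4 hrs and 0.65 (SE 0.11) at 12 hrs. With IFN-γ it was at -0.44 (SE 0.10) at 4 hrs and -1.20 (SE 0.14) at 12 hrs. Nefl was at -0.74 (SE 0.07) and -0.98 (SE 0.06) with Activin-A, and at -0.55 (SE 0.07) and -1.12 (SE 0.06) with IFN-γ. Without replicate 1 of Activin-A at 4 hrs the value at 4 hrs was 0.46 (SE 0.09) for Dmp1 and -0.70 (SE 0.07) for Nefl. The highest well of Dmp1 was replicate 4 in both Activin-A groups, and without it the values were 0.32 (SE 0.09) at 4 hrs and 0.52 (SE 0.11) at 12 hrs. Over all genes, 1.64% of 9137 tested at 4 hrs and 2.41% of 8971 at 12 hrs differed with Activin-A at an adjusted p under 0.05, and 5.06% and 9.25% with IFN-γ.

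Few of the tested genes passed with each single factor, whether in opposite directions or in the same direction. At 4 hrs 4 genes (0.0438% of those tested) were higher with Activin-A and lower with IFN-γ: Hes1, a transcriptional repressor downstream of Notch, Dmp1, Ank, which exports pyrophosphate and citrate, and Hbegf, a ligand of the EGF receptor. At 12 hrs there were 21 such genes (0.234%). Ordered by the smaller of the 2 changes they were led by Fam198b, mt-Co1, Hes1, Dmp1 and Cxcl12, of which Dmp1 had the largest fall with IFN-γ. The reverse pattern was held by 6 genes at 4 hrs (0.0657%) and 17 at 12 hrs (0.189%). Higher with each single factor were 7 genes at 4 hrs (0.0766%) and 12 at 12 hrs (0.134%). Nefl was among 11 genes lower with each single factor at 4 hrs (0.12%), at rank 5 by that order behind Notum, Nefm, Ndp and Cavin4, and led the 16 such genes at 12 hrs (0.178%), followed by Nefm, Adh7, Scara3 and Akr1c18. These counts rest on the comparisons that chose the pair, and nothing is read from its places in them. DESeq2 gave 2 genes with the pattern of Dmp1 and 5 with that of Nefl at 4 hrs. When replicate 1 of Activin-A at 4 hrs was left out, 5 genes had the pattern of Dmp1 at 4 hrs, with Hbegf lost and Spp1 and Tes gained, and 11 that of Nefl, without Notum and Cavin4, which were named above.

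The comparisons with both factors ask how the opposed effects on Dmp1 and the parallel effects on Nefl balanced. They share the single-factor or untreated wells with the comparisons that chose the genes, so their p-values are not independent of that choice. Adding Activin-A to IFN-γ did not shift Dmp1 detectably at 4 hrs and raised it 2.42-fold at 12 hrs. At 4 hrs the log2 fold change of both factors against IFN-γ was -0.01 (SE 0.11, edgeR adjusted p = 0.993), with a 95% interval from -0.22 to 0.21. At 12 hrs it was 1.28 (SE 0.14, edgeR adjusted p = 1.82e-11). Nefl fell at both times when Activin-A was added to IFN-γ, by 0.62 (SE 0.07, edgeR adjusted p = 1.08e-08) and 0.60 (SE 0.08, edgeR adjusted p = 1.29e-08) on the log2 scale. Of the pair, 1 gene passed at 4 hrs and both at 12 hrs, where 0.81% and 1.03% of all tested genes did. At 4 hrs these were 74 genes. The count was 134 when replicate 1 of Activin-A was left out of the fit and 120 when only the compared groups were fitted, but 49 without IFN-γ replicate 1, 47 without IFN-γ replicate 2 or replicate 4 of both, and 46 with DESeq2.

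Adding IFN-γ to Activin-A lowered both genes at both times. Dmp1 fell by 0.88 (SE 0.10, edgeR adjusted p = 1.21e-10) at 4 hrs and by 0.57 (SE 0.11, edgeR adjusted p = 2.91e-05) at 12 hrs. Nefl fell by 0.43 (SE 0.07, edgeR adjusted p = 4.96e-06) and by 0.74 (SE 0.08, edgeR adjusted p = 4.84e-14). Of all tested genes, 6.07% passed at 4 hrs and 9.62% at 12 hrs. Without replicate 1 of Activin-A the falls at 4 hrs were 0.90 for Dmp1 and 0.47 for Nefl, in each case past the threshold. The summed fibroblast markers at 4 hrs were at 241 to 288 CPM with Activin-A and 203 to 234 CPM with both factors. At 12 hrs they were at 304 to 353 CPM and 175 to 190.5 CPM. Their part in the falls of Dmp1 and Nefl was not tested.

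Against untreated cells the combination left Dmp1 lower at 4 hrs and Nefl lower at both times. Dmp1 was at -0.44 (SE 0.10, edgeR adjusted p = 0.00128) at 4 hrs, which is 73.4% of the untreated mean level. At 12 hrs it was at 0.08 (SE 0.12, edgeR adjusted p = 0.807), with a 95% interval from -0.15 to 0.31 and a mean level of 105% of untreated. Nefl was at -1.17 (SE 0.07, edgeR adjusted p = 2.00e-21) at 4 hrs and -1.72 (SE 0.07, edgeR adjusted p = 3.26e-41) at 12 hrs, or 44.3% and 30.3% of the untreated mean. The share of all tested genes that passed was 7.29% at 4 hrs and 9.84% at 12 hrs. The Schwann and neural crest sum at 4 hrs was 447 to 494 CPM in untreated wells, 449 to 471 CPM with Activin-A, 436 to 483 CPM with IFN-γ and 397 to 435.7 CPM with both factors, whose wells lay below all others of that time. At 12 hrs it was 349 to 404, 365 to 384, 355 to 398 and 332 to 362 CPM in the same order, with overlap of both factors and untreated, and its part in the values of Dmp1 and Nefl was not tested.

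**Figure D2:**
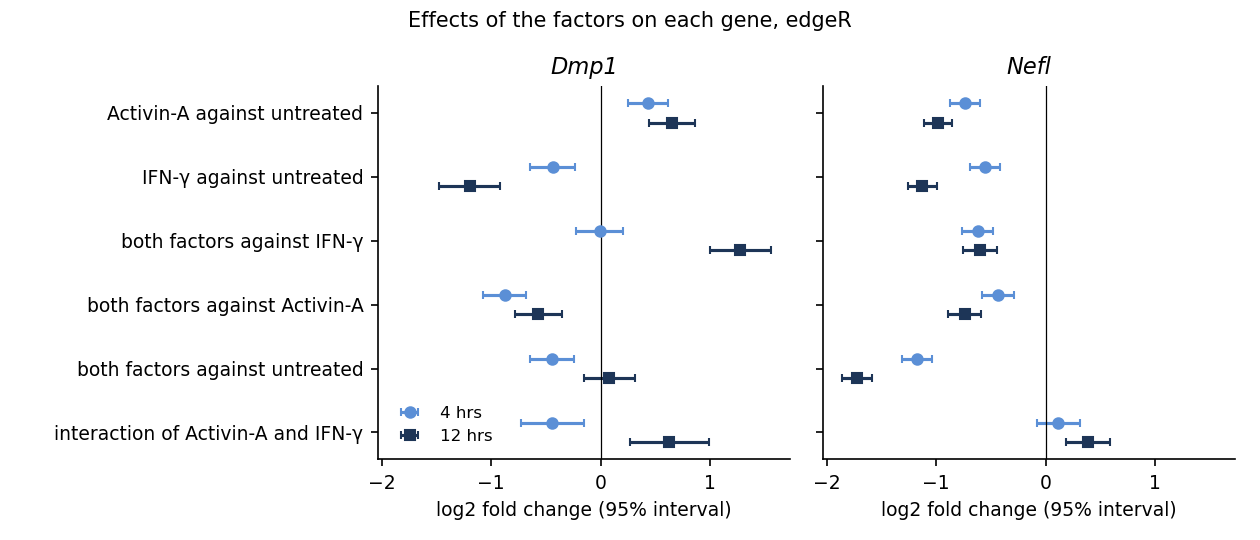
Log2 fold change with its 95% interval from edgeR (x axis) for Dmp1 (left) and Nefl (right) in each comparison, at 4 hrs (circles) and 12 hrs (squares). The effect of adding Activin-A to IFN-γ on Dmp1 goes from -0.01 at 4 hrs to 1.28 at 12 hrs, while that on Nefl is -0.62 and -0.60.

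If the factors acted independently on a fold scale, the level with both would be the product of the single effects. For Dmp1 this product was 184 CPM at 4 hrs, above the 135 CPM observed, and 74.1 CPM at 12 hrs, below the 113 CPM observed. For Nefl it was 284 CPM at 4 hrs and 158 CPM at 12 hrs, against 309 and 204 CPM observed. Added on the CPM scale instead, the single effects gave 201 CPM for Dmp1 at 4 hrs and 109.6 CPM at 12 hrs, the latter near the level observed. For Nefl they gave 195 CPM at 4 hrs and a negative value, -20.4 CPM, at 12 hrs. The interaction in the edgeR fit measures the departure from the product. It was -0.44 (SE 0.14, unadjusted p = 0.00297, edgeR adjusted p = 0.801) for Dmp1 at 4 hrs and 0.63 (SE 0.18, unadjusted p = 0.000721, edgeR adjusted p = 0.231) at 12 hrs. For Nefl it was 0.12 (SE 0.10, edgeR adjusted p = 0.945) at 4 hrs and 0.38 (SE 0.10, unadjusted p = 0.000265, edgeR adjusted p = 0.180) at 12 hrs. The values at 4 hrs without replicate 1 of Activin-A were -0.46 for Dmp1 (edgeR adjusted p = 0.488) and 0.09 for Nefl (edgeR adjusted p = 0.973). No interaction of the pair passed the correction over all genes. In the whole table edgeR called 0 of 9137 genes at 4 hrs, with 505 at an unadjusted p under 0.05, and 1 of 8971 (0.0111%) at 12 hrs, with 612, and DESeq2 called 0 at each time. The count at 4 hrs was 1 without replicate 1 of Activin-A, without the filter on low counts or with all 32 wells in the fit, and 0 without any other single well. The count at 12 hrs was 8 without the filter on low counts, 6 without IFN-γ replicate 3, 5 without replicate 2 of both, 4 without untreated replicate 4, and 0 to 3 without any other single well.

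**Figure D3:**
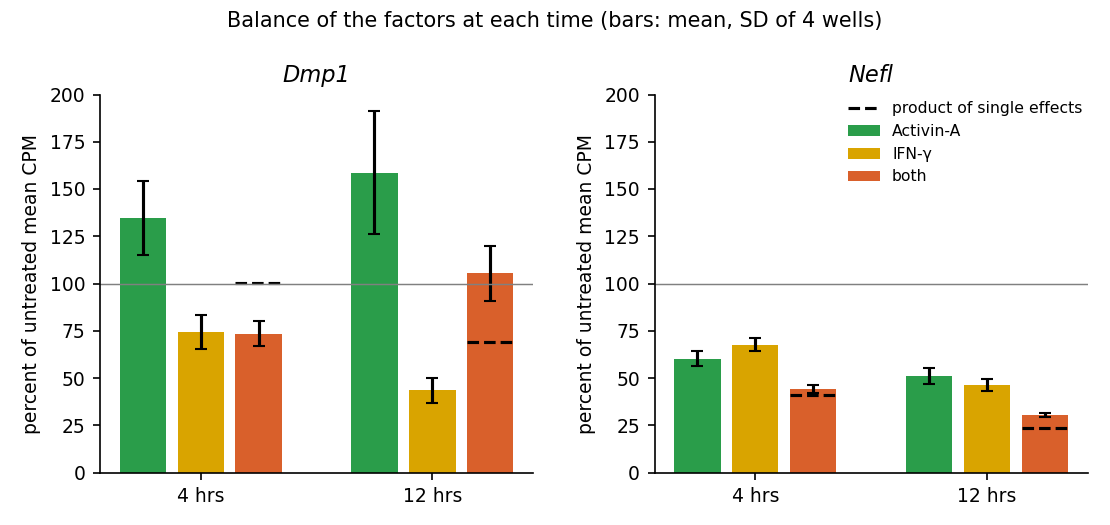
Mean level as a percentage of the untreated mean of the same time (y axis, bars with the SD of 4 wells) for Activin-A, IFN-γ and both factors. The dashed line at each bar for both factors is the product of the single effects, and for Dmp1 the bar is below it at 4 hrs (73.4% of untreated) and above it at 12 hrs (105%).

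Without factors, Dmp1 was lower at 12 than at 4 hrs, and Nefl did not differ detectably. The untreated wells are the controls of the comparisons that chose the genes, so their p-values are not independent of that choice. Wells of 4 and 12 hrs are separate cultures. In untreated cells Dmp1 fell by 0.79 between 4 and 12 hrs (SE 0.11, edgeR adjusted p = 1.07e-07), and Nefl was at -0.05 (SE 0.06, edgeR adjusted p = 0.719, 95% interval -0.17 to 0.07), where 4.9% of 9332 genes passed. These were 457 genes, against 302 without untreated replicate 1 at 12 hrs, 295 with DESeq2 and as many as 600 under the other settings. The summed level of the Schwann and neural crest markers in untreated wells went down, from 447 to 494 CPM at 4 hrs to 349 to 404 CPM at 12 hrs, and that of the fibroblast markers went up, from 216 to 259 CPM to 266 to 306 CPM. The part of either in the change of Dmp1 was not tested. In cells with both factors Dmp1 was at -0.25 (SE 0.12, edgeR adjusted p = 0.204) and Nefl fell by 0.60 (SE 0.08, edgeR adjusted p = 3.15e-09), where 7.1% passed. The wells with both factors did not enter the single-factor comparisons. The pair was still chosen with earlier results of these data known, so independence from the choice is not claimed. In these wells the Schwann and neural crest sum was 397 to 436 CPM at 4 hrs and 332 to 362 CPM at 12 hrs, and the fibroblast sum 203 to 234 CPM and 175 to 190.5 CPM, and their part in the change of Nefl was not tested.

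The test of the difference between the times separated the genes further. The effect of adding Activin-A to IFN-γ on Dmp1 was larger at 12 than at 4 hrs by 1.28 (SE 0.19, edgeR adjusted p = 4.93e-06), and Dmp1 was 1 of 9 genes (0.0964%) that passed this test. DESeq2 gave 5 genes, and with single wells left out the count ran from 3 to 18, with 18 without replicate 2 of both at 12 hrs and 10 or fewer otherwise. It was 3 without IFN-γ replicate 3 or replicate 4 of both at 4 hrs and without replicate 1 or 3 of both at 12 hrs, 4 without IFN-γ replicate 4 of either time, and 5 without replicate 1 of both at 4 hrs or IFN-γ replicate 2 at 12 hrs. Dmp1 passed in each of these fits, with an edgeR adjusted p of at most 0.000155. For Nefl the same difference was 0.02 (SE 0.10, edgeR adjusted p = 0.997, 95% interval -0.19 to 0.22). The effect of both factors against untreated cells grew for Nefl by -0.54 (SE 0.10, edgeR adjusted p = 0.000135), where 0.9% of genes passed, and differed for Dmp1 by 0.53 (SE 0.16, edgeR adjusted p = 0.120). For the effect of adding IFN-γ to Activin-A the difference was 0.31 (SE 0.15, edgeR adjusted p = 0.505) for Dmp1 and -0.31 (SE 0.10, edgeR adjusted p = 0.210) for Nefl, where 0.654% of genes passed. These differences without replicate 1 of Activin-A at 4 hrs were 0.34 (edgeR adjusted p = 0.486) and -0.26 (edgeR adjusted p = 0.356).

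In GENCODE M21, an annotation of the earlier build GRCm38, Dmp1 lies on the forward strand of chromosome 5 with 1 transcript of 6 exons, and Nefl on the forward strand of chromosome 14 with 1 transcript of 4 exons. The counts were made on GRCm39, so gene coordinates are not given. Dmp1 sits in a cluster of related matrix genes, next to Dspp, Ibsp, Mepe and Spp1, and of its 5 neighbours on each side 5 had a row in the table: Hsd17b11, Nudt9, Sparcl1, Spp1 and Pkd2. Of the 3 tested at each time only Spp1 passed in any comparison of treatments within a time. Nefl lies next to Nefm, and 6 of its 10 neighbours had a row: Cdca2, Kctd9, Gnrh1, Dock5, Nefm and Stc1. Of the 5 tested, Nefm and Stc1 passed in at least 1 such comparison. The share of all tested genes that passed in at least 1 of them was not counted. In single comparisons it reached 9.84%, so nothing is read from these numbers of neighbours.

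The gene most like Dmp1 over the 32 wells was its chromosomal neighbour Spp1, which encodes osteopontin, a secreted integrin ligand of the same family. The Pearson r of their log2 CPM was 0.95 over 32 wells, the highest of 9331 genes, 0.98 over the 8 group means, where 1 gene was higher, and 0.66 for deviations from the group means. Without replicate 1 of Activin-A at 4 hrs r was 0.95 and still the highest. Values of a well share its library and depth, so r is a description. Spp1 had 4469 to 12934 counts per well. Its mean level at 12 hrs was 6972 ± 419 CPM (SD, n = 4) in untreated cells. Activin-A gave 8316 ± 907 CPM, IFN-γ gave 5289 ± 152 CPM, and the combination gave 6502 ± 529 CPM. The wells with Activin-A ran from 7432 to 9556 CPM and overlapped the untreated wells at 6567 to 7517, while IFN-γ wells at 5157 to 5421 lay below all others of that time.

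Spp1 is described because its levels over these wells were most like those of Dmp1, so its p-values are from the wells that chose it and are not independent of that likeness. In the edgeR test Spp1 rose with Activin-A by 0.25 (SE 0.05, adjusted p = 0.000143) and fell with IFN-γ by 0.40 (SE 0.05, adjusted p = 2.94e-11) at 12 hrs. It rose by 0.30 (SE 0.05, edgeR adjusted p = 7.74e-06) when Activin-A was added to IFN-γ at 12 hrs. At 4 hrs the values were 0.15 with Activin-A (SE 0.05, edgeR adjusted p = 0.145), -0.12 with IFN-γ (SE 0.05, edgeR adjusted p = 0.267) and -0.02 for both against IFN-γ (SE 0.05, edgeR adjusted p = 0.949). With replicate 1 of Activin-A left out, the first 2 passed, at 0.18 (SE 0.04, edgeR adjusted p = 0.00431) and -0.12 (SE 0.04, edgeR adjusted p = 0.0268), and the third was at -0.02 (SE 0.04, edgeR adjusted p = 0.937). Like Dmp1, Spp1 fell with time in untreated cells, by 0.25 (SE 0.05, edgeR adjusted p = 0.000711). Its change of the Activin-A effect between the times was 0.32 (SE 0.08, edgeR adjusted p = 0.0572) in the presence of IFN-γ.

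The starts of Dmp1 and Spp1 are shown because the pair moved together and lie in 1 gene cluster. RefSeq's promoter table for GRCm38.p6 held 2 starts for each of them, and the start nearest the first exon of GENCODE M21 was used. The 250 bases before each start are printed from 5′ to 3′ on the forward strand, from chr5:104202367-104202616 for Dmp1 and chr5:104434861-104435110 for Spp1. Capitals mark the runs of 10 or more bases that the windows share on this strand.
Dmp1: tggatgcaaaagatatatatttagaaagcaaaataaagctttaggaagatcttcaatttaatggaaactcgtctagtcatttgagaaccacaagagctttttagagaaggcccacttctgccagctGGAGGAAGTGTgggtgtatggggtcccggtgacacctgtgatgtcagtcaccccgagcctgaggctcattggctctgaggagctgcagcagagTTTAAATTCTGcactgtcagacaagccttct
Spp1: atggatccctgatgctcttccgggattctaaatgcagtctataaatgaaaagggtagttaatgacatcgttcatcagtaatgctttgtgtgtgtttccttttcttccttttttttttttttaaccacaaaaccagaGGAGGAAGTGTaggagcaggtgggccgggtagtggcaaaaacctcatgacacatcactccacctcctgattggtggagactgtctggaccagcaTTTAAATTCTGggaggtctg
The windows share 2 such runs of 11 bases, in the same order. Only the printed strands were compared for shared runs, so that the runs lie on the same strand follows from the search. GGAGGAAGTGT begins 124 bases before the start of Dmp1 and 114 before that of Spp1, and it is found on either strand in 45 of 32851 promoter windows (0.137%). TTTAAATTCTG begins 31 bases before the start of Dmp1 and 20 before that of Spp1, and is found in 13 windows (0.0396%). The runs begin 93 bases apart in Dmp1 and 94 in Spp1. The Smad element CAGAC occurred once in the Dmp1 window and at 2 places in the Spp1 window, among 42.2% of all windows. The palindromic GAS element TTCNNNGAA occurred in neither window and in 7.02% of all. The interferon-stimulated response element, a pair of GAAA blocks with 2 bases of any kind between them, occurred once in the Spp1 window alone of the pair (2.98% of all), and the AP-1 element TGANTCA in neither (6.75% of all). Both strands were searched for these elements, and no match overlapped another or a shared run. The shared runs were found by comparing these windows, and the matches are of letters only.

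Nefm, the medium chain of neurofilaments, had 10 to 84 counts per well, and was highest in untreated wells and lowest with both factors at each time. At 4 hrs its mean was 56.1 ± 15.5 CPM (SD, n = 4) in untreated wells. Activin-A gave 29.8 ± 11.4 CPM, IFN-γ gave 35.9 ± 6.40 CPM and the combination gave 17.9 ± 4.12 CPM. At 12 hrs the means were 52.5 ± 14.0, 31.4 ± 3.34, 28.9 ± 1.90 and 18.6 ± 5.90 CPM in the same order. With both factors Nefm was at -1.65 (SE 0.22, edgeR adjusted p = 2.53e-08) against untreated at 4 hrs and -1.53 (SE 0.20, edgeR adjusted p = 9.16e-10) at 12 hrs. Adding Activin-A to IFN-γ lowered it at 4 hrs, at -1.01 (SE 0.24, edgeR adjusted p = 0.0187), and the value at 12 hrs was -0.63 (SE 0.23, edgeR adjusted p = 0.241). At 4 hrs these values without replicate 1 of Activin-A were -1.66 and -1.01, both past the threshold. Over the wells Nefm was at rank 10 of 9331 genes in likeness to Nefl (r = 0.79), with an r of -0.08 for deviations from the group means. In the annotation 1108 of the 1147 bases of exon 1 of Nefl overlap exon 4 of transcript Nefm-202 on the opposite strand. The strand setting of the counting is not given in the sources used here, and the part of this overlap in the counts was not tested. The heavy chain Nefh had 0 to 2 counts per well and was not tested, and Ina and Prph, which encode other neuronal filament proteins, had no row in the table.

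**Figure D4:**
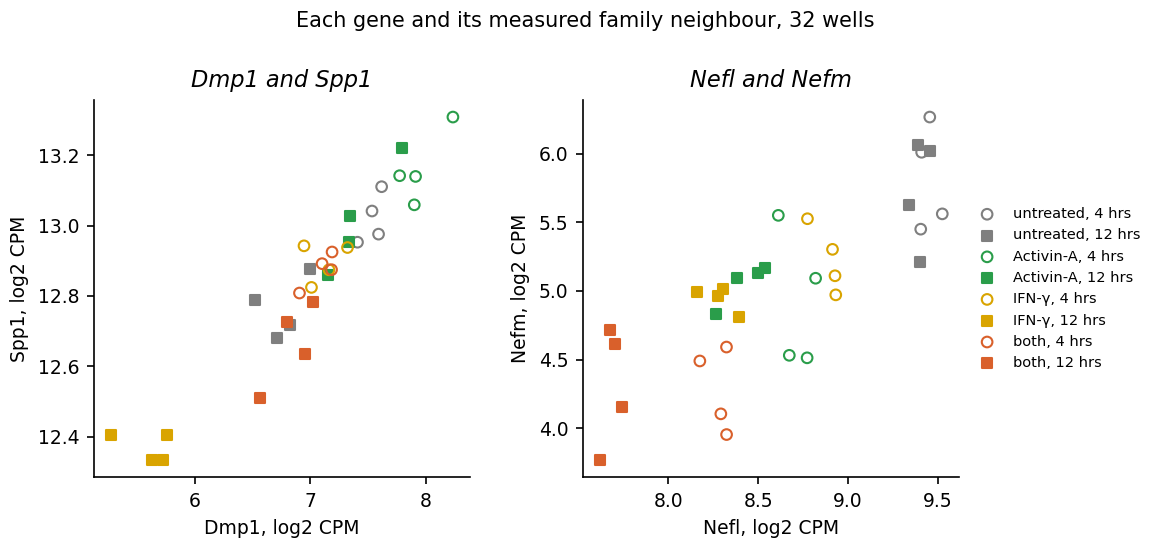
Log2 CPM of Spp1 against Dmp1 (left) and of Nefm against Nefl (right) in the 32 wells, coloured by treatment, with open circles at 4 hrs and filled squares at 12 hrs. Pearson r is 0.95 on the left and 0.79 on the right, and the IFN-γ wells at 12 hrs are the lowest for both genes on the left.

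Other genes alike in pattern to Dmp1 over the wells were Fut8 (r = 0.88), which adds core fucose to glycoproteins, Eno3 (r = 0.88), a muscle enolase of glycolysis, Smoc2 (r = 0.87), a secreted calcium-binding matrix protein, and Gpc1 (r = 0.85), a cell-surface heparan sulfate proteoglycan. The most opposite were Txnip (r = -0.86), an inhibitor of thioredoxin, Rhoc (r = -0.85), a small GTPase, and Grn (r = -0.84), the precursor of granulins. For Nefl genes among the 5 most alike were Adh7 (r = 0.94), an alcohol and retinol dehydrogenase, Plpp3 (r = 0.86), a lipid phosphatase, Areg (r = 0.84), a ligand of the EGF receptor, and Anxa11 (r = 0.81), an annexin. The most opposite to Nefl were Fstl1 (r = -0.94), a secreted glycoprotein, Litaf (r = -0.85) and Lrrk1 (r = -0.83), a kinase. By the r of the 8 group means 1 of the first 5 genes was kept for Dmp1 and 2 for Nefl, and by Spearman's rho 2 were kept for Dmp1.

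**Figure D5:**
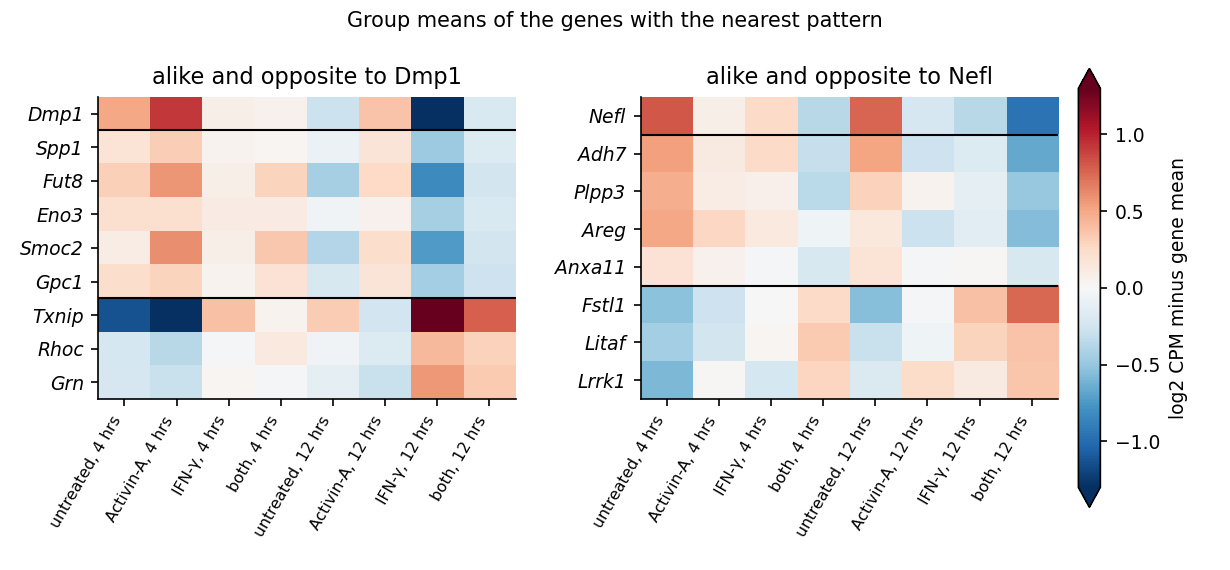
Group means of log2 CPM minus the mean of each gene over the 8 groups (colour) for Dmp1 and Nefl (top rows), genes from the 5 most alike (5 for Dmp1, 4 for Nefl) and the 3 most opposite by Pearson r over 32 wells. Spp1 follows Dmp1 in paler shades (r = 0.95), and Adh7 and Fstl1 follow and mirror Nefl (r = 0.94 and -0.94).

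A list of 45 genes of mineralised matrix and its control, without Dmp1, had 25 in the table. With Activin-A at 12 hrs 4 of 16 tested were higher, namely Spp1, Ank (0.18), Bgn (0.70), which encodes biglycan, and the integrin subunit Itgav (0.53), and 1 was lower, Pdpn (-0.51), on the log2 scale, where 1.25% of all tested genes were higher and 1.16% lower. With IFN-γ at 12 hrs 5 of 16 were lower and none higher: Spp1, Ank (-0.16), Sparc (-0.47), which encodes osteonectin, Mgp (-0.20), an inhibitor of calcification, and Itgav (-0.31). Of all tested genes 2.82% were lower and 6.43% higher. The summed fibroblast markers were also lower with IFN-γ at 12 hrs, as described above, and their part in the values of this list was not tested. The median log2 fold change of the list was 0.18 with Activin-A and -0.16 with IFN-γ, against -0.0031 and -0.0098 over all tested genes. When Activin-A was added to IFN-γ at 12 hrs, Spp1, Ank (0.20) and Bgn (0.56) rose and Pdpn (-0.50) fell, where 1.03% of all genes passed. Sparc, which passed as lower with IFN-γ, was at 1877 ± 86.2 CPM with IFN-γ and 1880 ± 93.4 with both (SD, n = 4), unlike Dmp1 at 46.7 and 113 CPM. At 4 hrs 2 of 17 were higher with Activin-A, Ank (0.31) and Itgav (0.46), and 1 lower with IFN-γ, Ank (-0.30), where 1.05% of all tested genes were higher with Activin-A and 0.766% lower with IFN-γ. Without replicate 1 of Activin-A these were 4 of 17, with Spp1 and Itgb3 added, and 3, with Spp1 and Sparc added. When Activin-A was added to IFN-γ at 4 hrs, Bgn (0.44) and Itgav (0.52) rose, where 0.81% of all tested genes passed. Ank and Sparc also rose in this comparison without replicate 1 of Activin-A.

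A list of 49 intermediate filament and neuronal cytoskeleton genes, without Nefl, had 35 in the table. With both factors against untreated cells at 12 hrs 3 of 23 tested were higher and 3 lower, where 6.14% of all tested genes were higher and 3.7% lower. Nefm, Dpysl3 (-0.38), a regulator of growth cones, and Marcks (-0.31), which binds actin, fell. Tubb3 (2.92), the neuronal beta-tubulin, Stmn2 (2.44), a microtubule destabiliser, and Cnn3 (0.50), a calponin, rose. Stmn2 was around the detection floor in untreated wells at 12 hrs, at 0.77 to 4.48 CPM, against 11.3 to 22.1 CPM with both factors. At 4 hrs 3 of 22 were higher, Tubb3 (2.43), Cnn3 (0.38) and Dst (0.39), and 2 lower, Nefm and Dnm1 (-0.37), a dynamin, where 5.08% of all tested genes were higher and 2.21% lower. Without replicate 1 of Activin-A, 4 of 23 were higher, with Tuba1a added, and the same 2 lower. With Activin-A alone at 12 hrs 3 of 23 were higher, Tubb3 (0.55), Dpysl3 (0.33) and Cnn3 (0.23), and Nefm (-0.80) was lower. The shares of all tested genes were 1.25% higher and 1.16% lower. With IFN-γ alone at 12 hrs 3 were higher, Tubb3 (2.66), Cnn3 (0.47) and Dst (0.35), and 4 lower, Nefm (-0.90), Dpysl3 (-0.62), Basp1 (-0.56) and Marcks (-0.34). Here 6.43% of all tested genes were higher and 2.82% lower. At 4 hrs Dst (0.46) was higher and Nefm (-0.88) lower with Activin-A, where 1.05% of all tested genes were higher and 0.591% lower. Without replicate 1 of that group Dst did not pass and Lmna and Nefm were lower. With IFN-γ at 4 hrs, of the 22 tested, Tubb3 (2.38), Dst (0.48) and Cnn3 (0.29) were higher and Nefm (-0.64) lower. Here 4.29% of all tested genes were higher and 0.766% lower. The median of the list with both factors was 0.03 at 4 hrs and -0.10 at 12 hrs, against -0.01 over all tested genes at each time. Tubb3, the only neuronal marker with a row, had 29.6 to 33.9 CPM in untreated wells at 12 hrs and 36.8 to 51.7 CPM with Activin-A. It had 181 to 216 CPM with IFN-γ and 228.8 to 250 CPM with both factors. In the same order Nefl had 646 to 702, 306 to 369.5, 283 to 335 and 195 to 212 CPM. The part of Tubb3 in the values of Nefl was not tested.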

How the data were processed

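YUMM3.3 cells were profiled by BRB-seq in 32 wells, 8 groups of 4 by treatment and time as labelled. Raw counts, not normalized, were deposited for each gene. The submitters’ processing notes name STAR 2.7.10b, featureCounts, DESeq2 1.36.0 and GRCm39; the annotation, the handling of molecular identifiers and the strand setting are not given in the sources used here, so PCR duplicates may remain in the counts. Of 12451 Ensembl identifiers 12437 matched a symbol in GENCODE M21.

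In R 4.3.3, genes were filtered with filterByExpr, normalised by TMM and tested with the quasi-likelihood test of edgeR 4.0.16 (adjusted p under 0.05, Benjamini-Hochberg over all tested genes), over the 16 wells of a time, or all 32 between times. SEs were derived from the F statistic. Log2 CPM used a prior count of 2. Named genes are the pair, the 5 most alike and 3 most opposite to each by r, up to 5 per class of single-factor response, neighbours and list members that passed; 1 gene alike to Nefl is not reported here. The pair and the lists were chosen with earlier results of these data known. In simulated counts with 200 of 8862 genes changed 2-fold, edgeR recovered 173 for both factors against IFN-γ at 12 hrs and 140 for the interaction. It also called 11 and 12 genes that had not been changed. Genes of the lowest levels were not among those changed. The interactions of the pair were smaller than 2-fold, and recovery of such smaller changes was not simulated. Alternatives were DESeq2 1.42.0, RLE size factors, other filters, other wells in the fit, the replicate block and each well left out. Plots used matplotlib 3.10.9.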

Additional observations from a re-analysis of the deposited data

Results flagged for a closer look

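Among the 4 wells with IFN-γ at 4 hrs, the lowest Nefl level, 436 CPM in replicate 1, was far from the others at 480.4 to 487 CPM. The gap was 0.879 of the range of the group, and chance alone gives such a gap in about 1 of 20 groups, of which 16 were examined over the pair. The effect on Dmp1 of adding Activin-A to IFN-γ differed between 12 and 4 hrs by 1.28 on the log2 scale (edgeR adjusted p = 4.93e-06), with every well with both factors above every IFN-γ well at 12 hrs and overlapping ranges at 4 hrs. The effect of both factors against untreated cells on Nefl differed between 12 and 4 hrs by -0.54 (edgeR adjusted p = 0.000135), with the wells of both factors below all untreated wells at each time.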

How the results depend on the processing

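Each comparison of the pair was recomputed under other settings and with each of its wells left out. Over both genes and the comparisons that carry a test, which leaves out those of each single factor with untreated cells, this gave 168 values under other settings and 288 with a well left out, of which 166 and 282 had the same direction and the same side of the threshold. The exceptions concern values near 0 or near the threshold. For Dmp1, both factors against IFN-γ at 4 hrs changed sign without the filter on low counts (0.0018), as it did without IFN-γ replicate 1 or 3 or replicate 2 of both, and with wells left out ran from -0.069 to 0.072. Both against untreated at 12 hrs ran from -0.012 (without untreated replicate 1) to 0.17. The difference of Nefl between the times for both against IFN-γ changed sign without replicate 2 of both at 4 hrs or IFN-γ replicate 4 at 12 hrs and ran from -0.029 to 0.056. The difference of Dmp1 between the times for both against untreated passed when only the compared groups were fitted (0.53, edgeR adjusted p = 0.0385) and had an adjusted p of up to 0.242 over the other settings. The interaction for Dmp1 at 12 hrs had an adjusted p of 0.0547 without Activin-A replicate 4, and 0.110 to 0.987 over the other settings. The cause of these shifts was not tested. DESeq2 called 92 genes for Activin-A at 4 hrs where edgeR called 150, 140 against 216 at 12 hrs, 46 against 74 and 59 against 92 for both against IFN-γ, and 569 against 863 for both against Activin-A at 12 hrs. It gave 9 genes lower with Activin-A and higher with IFN-γ at 12 hrs.

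Same-numbered wells did not vary together (r of deviations from -0.09 to 0.04 over 48 pairs), so the numbers were not taken as pairs. With the replicate block, no call of the pair changed, the interaction of Dmp1 at 12 hrs was 0.65, and both against IFN-γ gave 69 genes at 4 hrs and 97 at 12 hrs. At 35 to 57 counts of Dmp1 per IFN-γ well at 12 hrs, counting error limits that mean more than those of Nefl.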
